A study of Sus scrofa with 12 samples.

Results

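Of the 326 mature miRNAs in the small-RNA tables of porcine mesenchymal stem cells (MSCs) and their extracellular vesicles (EVs), 50 carry a number of 1200 or more in their name. These 50 high-numbered miRNAs were chosen by name alone, with the entry of the largest total used for each, and come from 36 precursors. miRNA numbers are given in the order of discovery. The lowest numbers and the let-7 family therefore hold many miRNAs that are abundant and shared between distant animals, while high numbers came from later sequencing and often name miRNAs of low level. The number is not a measure of conservation, and the tables hold none: miR-1307, miR-1306, miR-1343 and miR-3613, for example, also have human counterparts of the same number. A miRNA precursor is a short hairpin that is cut out of a longer transcript, often an intron of a protein-coding gene, and its 5p and 3p arms each can be loaded into an Argonaute protein, usually with 1 arm preferred. EVs carry small RNAs out of the cell, and MSC-derived EVs are studied for what this cargo does in recipient cells.

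MSCs were grown from the abdominal fat of 3 female domestic pigs aged 3 months and were used at passage 3. Cells had been cultured with platelet lysate, and EVs were pelleted from their supernatants by ultracentrifugation, so that each pig gave 1 MSC and 1 EV small-RNA library. There was no treatment and no other genotype, and replicates 1 to 3 are the 3 pigs. Among the mRNA libraries of the study, CD44, NT5E and PDGFRB were present in all 3 MSC libraries (lowest level 10.8 RPKM). THY1 was listed at 0 in them, ENG was at 0.322 to 0.549 RPKM, and COL1A1 had no entry. The leukocyte marker PTPRC was at most 0.0592 RPKM there, KDR and VWF were listed at 0, PECAM1 was at 0.589 to 1.12 RPKM and CD14 at 4.97 to 6.12 RPKM, and the platelet genes PPBP and ITGA2B were listed at 0, while CDH5 and PF4 had no entry.

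The libraries differed widely in depth. The MSC libraries held 9455607 to 15395871 counts, against 656888, 19454 and 18374 in EV replicates 1, 2 and 3. A count of 0 allows up to 3 counts, which equalled at most 0.317 CPM (the count scaled to the library total) in an MSC library but 4.57, 154 and 163 CPM in the 3 EV libraries. Detection in EVs did not follow depth alone, since 8, 1 and 4 of the high-numbered miRNAs and 105, 54 and 122 of the 276 others exceeded 3 counts in EV replicates 1, 2 and 3. In MSC replicate 3, miR-21 took 74.4% of the counts, against 28.8% and 33.5% in the other two, which lowers the CPM of all other miRNAs there.

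High-numbered miRNAs were mostly rare in MSCs. Of the 50, 37 had a count in any library, 28 had a count in all 3 MSC libraries, and 26 exceeded 3 counts in all 3. A further 9 were counted in only some MSC libraries, and 13 were listed at 0 in all 6 libraries, namely miR-1224, miR-1296-3p, miR-4334-5p, miR-4335, miR-4337, miR-4338, miR-4339, miR-7136-3p, miR-7138-5p, miR-7138-3p, miR-7141-3p, miR-7143-5p and miR-7144-3p. The mean MSC level was 100 CPM or more for 6 members, over 10 CPM for 16 including these, 1 to 10 CPM for 14, and above 0 but under 1 CPM for 7. The median of the mean MSC level was 2.40 CPM over the 50, against 12.1 CPM over the 129 miRNAs numbered from 200 to below 1200 and 167 CPM over the 147 numbered below 200 together with let-7. The same order appeared in the share listed at 0 in every library, 26.0% against 14.0% and 4.76%. Within the high numbers, the median mean level was 11.7 CPM for the 14 members numbered below 2000, 4.45 CPM for the 14 numbered from 2000 to below 5000, and 1.27 CPM for the 22 numbered 5000 or more.

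**Figure D1:**
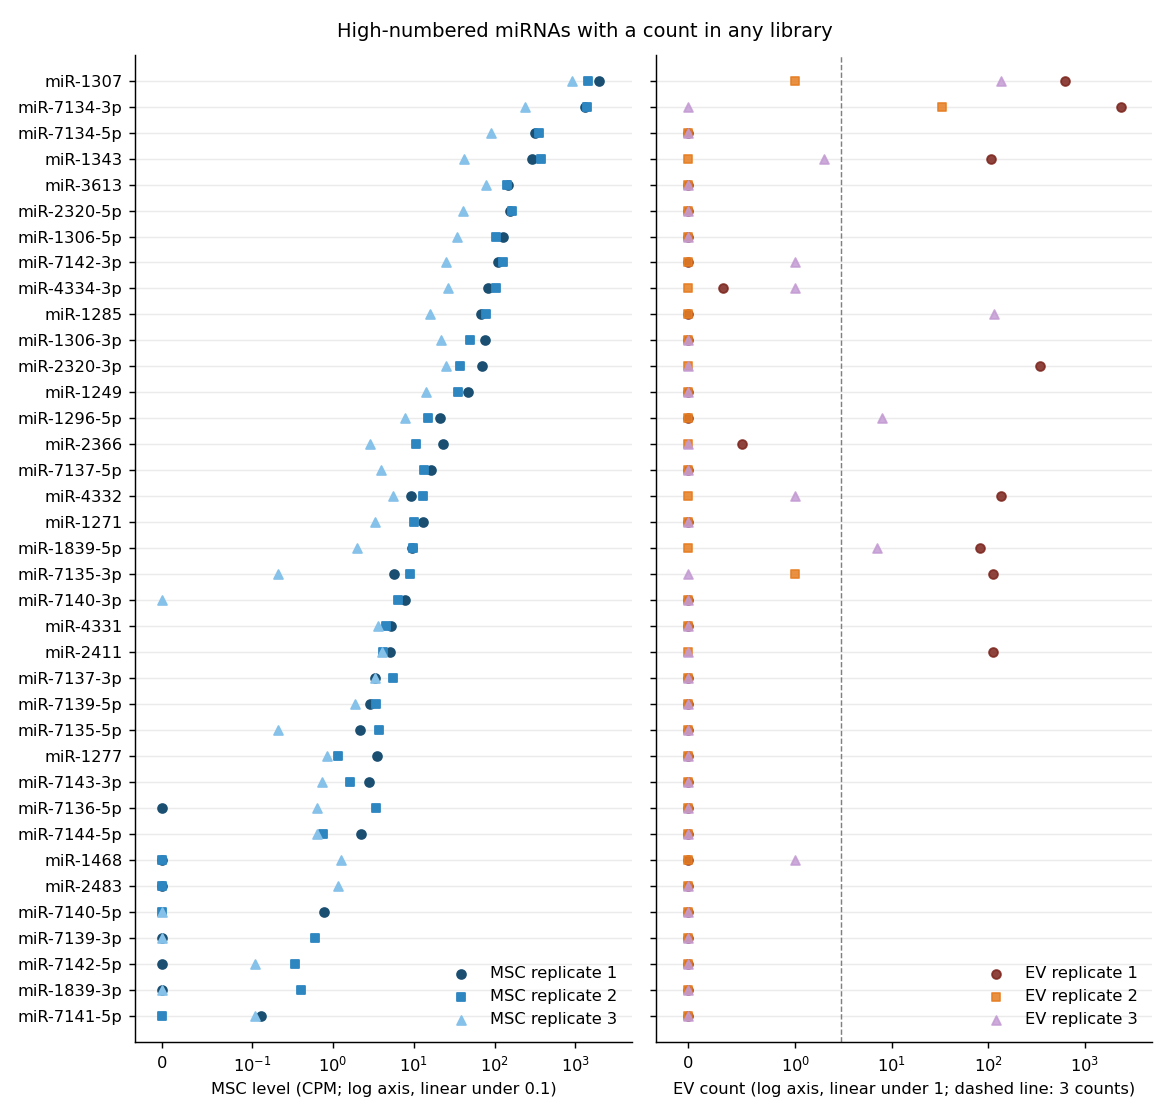
The 37 high-numbered miRNAs with a count in any library, ordered by mean MSC level, with the CPM in the 3 MSC libraries on the left and the counts in the 3 EV libraries on the right (log axes, linear near 0). Levels in MSCs run over 4 orders of magnitude, while in EVs only 10 members lie to the right of the dashed line at 3 counts in any library.

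miR-1307 and miR-7134-3p led the list in MSCs. miR-1307 was at 1987, 1417 and 899 CPM in MSC replicates 1, 2 and 3, which placed its mean 45th among the 326 miRNAs. miR-7134-3p was at 1315, 1380 and 240 CPM, and its mean ranked 55th. miR-7134-5p, from the other arm of the same hairpin, was at 314, 352 and 89.3 CPM. miR-1343 was at 293, 379 and 42.5 CPM, so the means of these 2, 252 and 238 CPM, did not differ beyond their spread (SD 142.1 and 175, n = 3), and the highest value of any other member in an MSC library was 166 CPM. miR-3613 was at 144.97, 141.95 and 78.89 CPM. miR-2320-5p was at 157, 166 and 41.4 CPM, so the means of these 2, 121.9 and 121.4 CPM, did not differ beyond their spread (SD 37.3 and 69.5, n = 3). Next came miR-1306-5p with a mean of 88.9 CPM (SD 48.9, n = 3), miR-7142-3p with 87.5 (SD 54.8), miR-4334-3p with 71.4 (SD 40.2), miR-1285 with 54.0 (SD 33.1), miR-1306-3p with 49.1 (SD 27.1) and miR-2320-3p with 44.4 CPM (SD 23.6). Each step to the next in this run was smaller than the SD of either neighbour. These SDs include the lower CPM that MSC replicate 3 had for all of them. Library by library, miR-4334-3p exceeded miR-1285 in all 3, while the other steps changed sign between libraries. The counts of miR-4334-3p were not whole numbers, because the authors had divided reads that match several precursors between them. Its level is uncertain for that reason. The counts of miR-1249 and miR-2366 were not whole either, and each was listed with 2 entries. The entry used held 1370 of the 2740 counts of miR-1249 and 539.5 of the 1079 of miR-2366, so their levels here are those of 1 entry.

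MSC replicate 3 was the lowest of the 3 MSC libraries in CPM for all 26 members that exceeded 3 counts in each, and for 169 of the 206 other miRNAs that did. The median of the log2 ratio of replicate 3 to the mean of the other two was -1.56 over the 26 members and -1.70 over the others. With miR-21 taken out of the library totals, the ratio was -0.24 for the members and -0.38 for the others. Replicate 3 was then the lowest for 13 of the 26 members and for 121 of the 206 others. Some members outside the 26 were counted in only part of the MSC libraries. miR-7140-3p had 119 and 94 counts in MSC replicates 1 and 2 and none in replicate 3, while miR-1468 and miR-2483 had 12 and 11 counts in replicate 3 and none in the other two. miR-7136-5p had 0, 50 and 6 counts. These 4 were picked after their values were seen.

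In EVs, 10 of the 50 high-numbered miRNAs exceeded 3 counts in any library, and 14 had any count. Of the 10, 7 did so in 1 EV library, 3 in 2, and 0 in all 3. In comparison, 91 of the 147 miRNAs numbered below 200 with let-7 (61.9%) and 56 of the 129 numbered from 200 to below 1200 (43.4%) exceeded 3 counts in any EV library, against 20% of the high-numbered ones. Without EV replicate 1, 5 members remained above 3 counts in any EV library. By sub-range, 5 of the 14 members numbered below 2000, 3 of the 14 numbered from 2000 to below 5000 and 2 of the 22 numbered 5000 or more were seen.

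Because high-numbered miRNAs are rarer in MSCs, detection was also set side by side within bands of MSC level. At a mean MSC level of 1 to 10 CPM, 4 of 14 high-numbered members and 9 of 49 other miRNAs exceeded 3 counts in any EV library. At 10 to 100 CPM, the numbers were 3 of 10 members and 28 of 53 others. At 100 to 1000 CPM, they were 2 of 5 members and 56 of 64 others. The share of members seen in any EV library was thus lower than that of other miRNAs in the bands from 10 to 1000 CPM. It was higher in the band below, with few members in each. Under 1 CPM, 0 of 7 members and 2 of 29 others were seen, and over 1000 CPM miR-1307 was the single member and 52 of 53 others were seen. In EV replicate 1 alone, 4 of 14 members and 4 of 49 others were seen at 1 to 10 CPM. At 10 to 100 CPM, 1 of 10 and 10 of 53 were seen there. At 100 to 1000 CPM, 2 of 5 and 39 of 64 were. In EV replicate 3, where 3 counts equalled 163 CPM, 1 of 14 members and 8 of 49 others were seen at 1 to 10 CPM. At 10 to 100 CPM, 2 of 10 and 24 of 53 were seen in that library. At 100 to 1000 CPM, 0 of 5 and 41 of 64 were. Whether these shares differ was not tested.

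**Figure D2:**
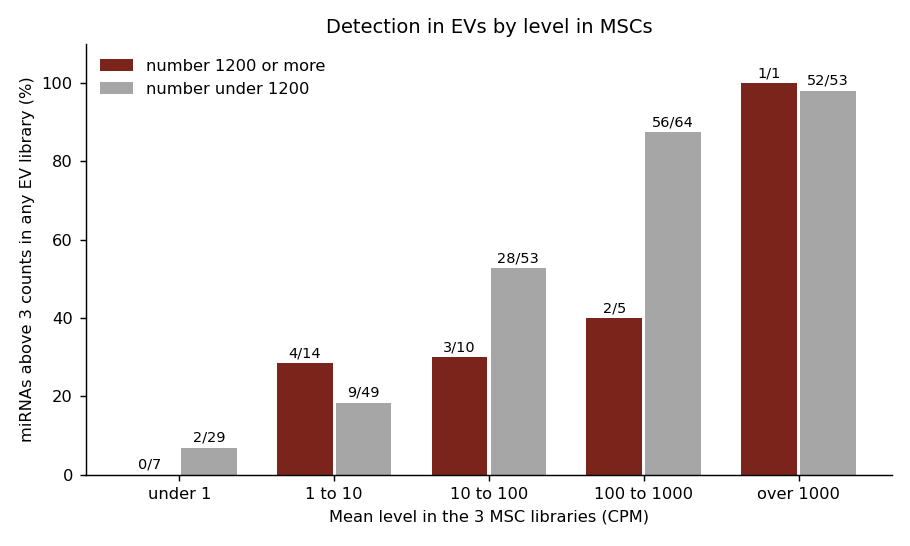
Share of miRNAs above 3 counts in any EV library (%), by band of mean level in the 3 MSC libraries (CPM), for numbers of 1200 or more and for lower numbers, with the numbers of miRNAs printed above the bars. The bars differ most at 100 to 1000 CPM, with 2 of 5 high-numbered miRNAs against 56 of 64 others.

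In the deepest EV library, most miRNAs were either well counted or not counted, and the high-numbered ones were no exception. EV replicate 1 listed 40 of the 50 members at 0, 2 at fractions of a count, none between 3 and 50 counts, and 8 above 50, the lowest of them at 82 counts. Over all 326 miRNAs, 198 were at 0, 15 over 0 and up to 3, 9 over 3 and up to 50, and 104 above 50. At the CPM of MSC replicate 1, 16 members would have had over 10 counts in EV replicate 1, and 12 of these 16 had 3 or fewer (75.0%). Among the other miRNAs, 65 of the 165 that would have had over 10 counts had 3 or fewer (39.4%). These 2 sets were not matched for MSC level, as 1 member and 53 others had a mean over 1000 CPM in MSCs. The numbers for EV replicate 1 by band of MSC level are given above. Of the 8 members above 3 counts in EV replicate 1, 6 lay above the count that the MSC level gives, as did 45 of the 105 other miRNAs above 3 counts.

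**Figure D3:**
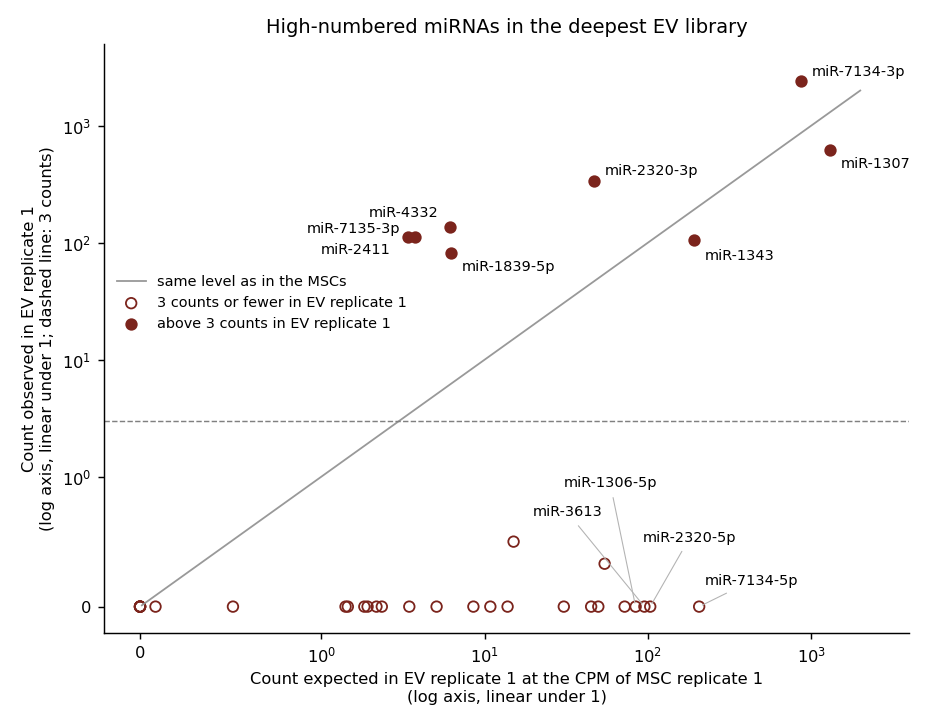
Counts of the high-numbered miRNAs observed in EV replicate 1 against the counts expected there at the CPM of MSC replicate 1, with a line where both are equal (log axes, linear under 1). The 8 members above 3 counts lie at 82 counts or more, 6 of them above the line, while miR-7134-5p, for which 206 counts would be expected, lies at 0.

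miR-1307 was the member with counts in all 3 EV libraries. It had 624, 1 and 136 counts in EV replicates 1, 2 and 3, where the MSC level of the same pig gives 1305, 27.6 and 16.5 counts. It was thus below its MSC level in EV replicates 1 and 2 and above it in replicate 3, and its EV values of 950, 51.4 and 7402 CPM lay within, below and above the MSC range. miR-7134-3p had 2390, 33 and 0 counts in the 3 EV libraries, where 864, 26.8 and 4.42 would be expected. At 3638 CPM in EV replicate 1 it ranked 22nd of all miRNAs there, while in EV replicate 3 it was at 0, below both the 4.42 counts of its MSC level and the 66.9 counts of its level in EV replicate 1. miR-1343 had 106, 0 and 2 counts, with 193 expected in EV replicate 1. Its EV values of 161, 0 and 109 CPM overlapped the MSC range of 42.5 to 379 CPM.

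Besides miR-7134-3p, 5 members lay above their MSC level in EV replicate 1. miR-4332 had 135, 0 and 1 counts in the EV libraries, where its level of 9.29, 12.9 and 5.50 CPM in MSCs gives 6.10 counts in EV replicate 1. miR-7135-3p had 112, 1 and 0 counts in EVs, with 3.75 expected in replicate 1. miR-2411 had 111, 0 and 0 counts, with 3.37 expected. These 3 thus had counts near the 106 of miR-1343, which was at 293 CPM in MSC replicate 1, where miR-7135-3p and miR-2411 were at 5.72 and 5.13 CPM. miR-1839-5p had 82, 0 and 7 counts in EVs, with 6.19 expected in EV replicate 1 and under 1 in replicate 3. miR-2320-3p had 340, 0 and 0 counts, with 46.5 expected. In EV replicates 2 and 3, under 1 count would be expected for each of these 5 at the MSC level. At the level of EV replicate 1, miR-2320-3p would have had 10.1 and 9.51 counts there and had none, whereas the other 4 would have had 2.29 to 4.00 counts in each and had 0 to 7.

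The last 2 of the 10 were counted in EV replicate 3 alone. miR-1285 had 0, 0 and 113 counts, which was 6150 CPM, against 68.4, 77.5 and 16.1 CPM in the 3 MSC libraries. It was listed at 0 in EV replicate 1, where 44.9 counts would be expected at the MSC level. miR-1296-5p had 0, 0 and 8 counts. In EV replicate 3, most miRNAs above 3 counts lay above the count that the MSC level gives, 4 of 4 members and 111 of 122 others. In that library 3 counts already equalled 163 CPM. Among the others were miR-486 and miR-126-3p, which are miRNAs of other cell types. The summed level of the blood miRNAs (miR-451, both arms of miR-142, miR-144 and miR-486, of which 3 of 5 had a count) was 2558 CPM in EV replicate 3, against 41.9 and 0 CPM in EV replicates 1 and 2 and 1.75 to 14.2 CPM in MSCs. Of its 47 counts there, 45 were of miR-486 and 1 each of miR-451 and miR-142-3p, while miR-144 and miR-142-5p were at 0. The endothelial miR-126 was at 1252 CPM over both arms in EV replicate 3, at 0 in the other 2 EV libraries and at 78.1 to 113 CPM in MSCs. The part of these cell types in the counts of miR-1285 and miR-1296-5p was not tested.

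Most of the high-numbered miRNAs that MSCs held at moderate level were not seen in EVs. At 0 counts in all 3 EV libraries were miR-7134-5p, miR-3613, miR-2320-5p, miR-1306-5p, miR-1306-3p and miR-1249, and in EV replicate 1 alone their MSC level gives 206, 95.2, 103, 84.1, 49.7 and 30.6 counts. Set against 3 counts over the whole EV group (4.32 CPM, with 94.6% of the group's counts from EV replicate 1), the mean MSC level makes miR-7134-5p at least 58.3-fold lower in EVs, miR-3613 at least 28.2-fold, miR-2320-5p at least 28.1-fold, miR-1306-5p at least 20.6-fold, miR-1306-3p at least 11.4-fold and miR-1249 at least 7.41-fold lower. These limits cover counting error only and rest on 1 library. miR-7142-3p had 0, 0 and 1 counts in EVs, with 72.1 expected in EV replicate 1. miR-4334-3p, with its shared reads, had 0.33, 0 and 1 counts, with 54.3 expected, and miR-2366 had 0.5, 0 and 0 counts, with 15.04 expected. The values of miR-1249 and miR-2366 are those of 1 of their 2 entries. The remaining members with a count in MSCs were at 0 in all 3 EV libraries, apart from a single count of miR-1468 in EV replicate 3.

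The arms of 1 hairpin differed in EVs. Of the member precursors, 16 were listed with both arms, and in MSCs 4 of them had both arms above 3 counts in all 3 libraries. In EV replicate 1, none had both arms above 3 counts, 3 had only the 3p arm (mir-7134, mir-2320 and mir-7135) and 1 had only the 5p arm (mir-1839). Among the 71 lower-numbered precursors with both arms, 14 had both, 12 had only the 3p and 12 only the 5p arm above 3 counts there. For mir-2320, the arm seen in EVs was the weaker one in MSCs. Its 5p arm made up 69.0%, 81.6% and 62.2% of the counts of both arms in MSC replicates 1, 2 and 3, but 0 of 340 counts in EV replicate 1, which allows a share of up to 1.12% (upper Wilson 95% limit). For mir-7134, the 5p share was 19.3%, 20.3% and 27.1% in MSCs, 0 of 2390 counts in EV replicate 1 (up to 0.160%) and 0 of 33 in EV replicate 2 (up to 10.4%). The share in EV replicate 1 thus lay below the lowest MSC share for both hairpins. For mir-7134 the limit in EV replicate 2 lay below it too, on 33 counts. mir-2320 had no count of either arm in EV replicates 2 and 3, so its share rests on 1 EV library. For mir-7135, the 5p share was 27.3% and 29.4% in MSC replicates 1 and 2 and 0 of 112 counts in EV replicate 1 (up to 3.32%). mir-1839 was nearly all 5p in both cells and EVs, and mir-1306 and mir-7137, with both arms in all MSC libraries, had no count of either arm in any EV library.

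**Figure D4:**
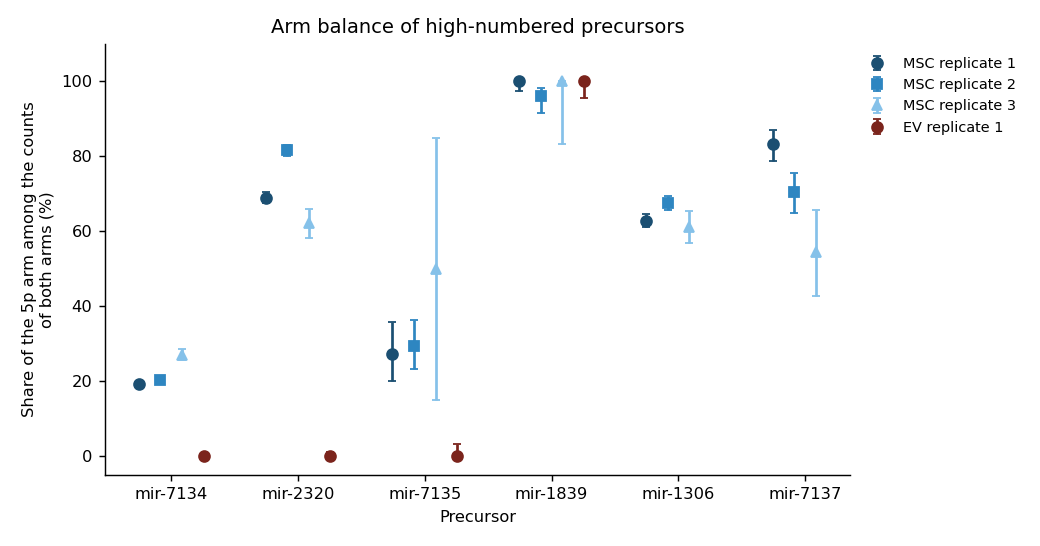
Share of the 5p arm among the counts of both arms (%) for 6 high-numbered precursors in the 3 MSC libraries and in EV replicate 1, with Wilson 95% intervals. In EV replicate 1 the 5p share of mir-7134, mir-2320 and mir-7135 is 0, below their MSC shares, and mir-1306 and mir-7137 have no EV point because neither arm was counted.

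Together, high-numbered miRNAs held a small share of each library. When each mature miRNA was counted from 1 entry, they made up 0.552%, 0.500% and 0.164% of the counts in MSC replicates 1, 2 and 3 and 0.645%, 0.205% and 1.78% in EV replicates 1, 2 and 3. The groups overlapped, and the mean log2 share was 0.79 higher in EVs (exact permutation test, two-sided, p = 0.40, where 0.1 is the smallest p that 3 against 3 allow). With miR-21 left out of the totals, the difference was -0.06 (exact permutation test p = 0.80). Few members made up this share. miR-1307 was the top member in the 3 MSC libraries and in EV replicate 3, where it and miR-1285 held 92.2% of the members' counts. miR-7134-3p was the top member in EV replicates 1 and 2, with 61.3% and 94.3% of them.

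The quasi-likelihood test of edgeR was then fitted to all miRNAs that passed its filter on low counts, EVs against MSCs, with a miRNA called at a fold change over 2 and a Benjamini-Hochberg adjusted p under 0.05. Of the 50 members, 23 of 220 miRNAs in all were tested and 27 were too low. Of the 23, 22 were over the filter in all 3 MSC libraries, and miR-7135-3p was not. Past the adjusted threshold, 0 members were higher and 0 were lower in EVs, as for all miRNAs (0% called in each direction), and the lowest adjusted p of a member was 0.0813 (edgeR). DESeq2 called 2 members higher, miR-1839-5p and miR-7135-3p, and 4 lower, miR-7134-5p, miR-3613, miR-2320-5p and miR-1306-5p, where it called 6.36% of all miRNAs tested in each direction. At the thresholds of the study, a fold change over 2 and an unadjusted p under 0.05, edgeR found 2 of the 23 members higher (8.70%, against 6.36% of all 220 miRNAs tested) and 11 lower (47.8%, against 24.1% of all). With upper quartile factors in place of TMM, these counts were 4 higher and 9 lower (12.3% and 16.8% of all), and with the pig as a block they were 0 and 1 (1.36% and 6.36% of all). All 11 lower members had 3 counts or fewer in each EV library and had passed the filter through the MSC libraries alone, so they could differ only by being lower in EVs, and their number says nothing beyond the detection given above.

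The 11 were miR-7134-5p, miR-2320-5p, miR-1306-5p, miR-1306-3p, miR-3613, miR-1249, miR-2366, miR-1271, miR-7137-5p, miR-7137-3p and miR-4331, and 10 of them were at 0 in every EV library, so that their fitted fold changes depend on the prior count and are not given. The 2 higher were miR-7135-3p, with a log2 fold change of 4.33 (SE 1.69, n = 3, edgeR adjusted p = 0.130), and miR-1839-5p with 3.68 (SE 1.27, n = 3, edgeR adjusted p = 0.101), each higher in EVs in 2 of 3 pigs. With the pig as a block, the values were 3.47 (edgeR adjusted p = 0.714) and 3.20 (edgeR adjusted p = 0.728). miR-7135-3p passed the filter only with the help of its EV counts. Its level of 0.21 CPM in MSC replicate 3 lay under the filter's 2.04 CPM. It was over the filter in EV replicate 1 and, on 1 count, in EV replicate 2. Its place among the higher members thus depends in part on how it was selected. miR-1839-5p was over the filter in all 3 MSC libraries. The adjusted p of miR-1839-5p was 0.00504 with DESeq2 and ran from 0.00504 to 0.728 over the alternatives, and that of miR-7135-3p was 0.0198 with DESeq2 and ran from 0.0198 to 0.714. The other members of high EV count did not pass: miR-2411 had 3.46 (SE 1.66) and miR-4332 had 2.97 (SE 1.43) on the log2 scale, both with an edgeR adjusted p of 0.209. miR-1285 had 3.59 (SE 2.42, edgeR adjusted p = 0.379), miR-2320-3p had 1.85 (SE 1.84, edgeR adjusted p = 0.546) and miR-1296-5p had 1.49 (SE 1.78, edgeR adjusted p = 0.633), and each of these 3 turned negative under some alternatives. miR-1343 had -1.53 (SE 1.35, edgeR adjusted p = 0.505). For miR-7134-3p the log2 fold change was 1.02 (SE 1.63, edgeR adjusted p = 0.733), and for miR-1307 it was -0.63 (SE 1.197, edgeR adjusted p = 0.786). The SE of these 2 exceeded the change itself.

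The median log2 fold change of the 220 miRNAs was -0.999 with TMM, whose factors included 0.306 for MSC replicate 3 and 3.24 for EV replicate 3, and 0.0031 with library totals only. The members' median of -4.42 was set by the 11 of 23 that could only be lower. It is not compared with that of other miRNAs. Members at 0 in EVs with a mean MSC level over 4.32 CPM were set to 3 counts over the EV group, which gave -1.47. In that median, miR-7137-3p and miR-2366 kept their fitted values. The number of calls hung on EV replicate 3. Without it, edgeR called 4 members higher and 13 lower of 28 tested past the adjusted threshold, where 8.23% of the 243 miRNAs tested were called higher and 39.5% lower. All 13 lower members rounded to 0 in both remaining EV libraries, so they too could only be lower. The 4 were miR-7135-3p with a log2 fold change of 4.96 (edgeR adjusted p = 0.0199), miR-2411 with 4.22 (edgeR adjusted p = 0.0316), miR-1839-5p with 3.65 (edgeR adjusted p = 0.0235) and miR-4332 with 3.62 (edgeR adjusted p = 0.0377). Their EV level in that fit comes almost wholly from EV replicate 1. Without EV replicate 1 instead, none of the 4 was called: miR-7135-3p had 1.94 (edgeR adjusted p = 0.589), miR-1839-5p had 3.32 (edgeR adjusted p = 0.149), miR-4332 had 0.10 (edgeR adjusted p = 0.960) and miR-2411 had -8.65 (edgeR adjusted p = 0.588), a fitted value at 0 counts in both libraries left.

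The genes around these hairpins were read from RefSeq (assembly Sscrofa11.1), since many high-numbered miRNAs are cut from introns. Of the 36 precursors, 29 had a place in that annotation, 24 of these lay within the span of another gene, 22 of them a protein-coding one, and 0 had another miRNA within 10 kb. Strand was not compared. mir-7134 lay within TNRC6B, whose protein works with Argonaute in miRNA silencing, and mir-1306 within DGCR8, the RNA-binding partner of Drosha in hairpin cutting. mir-1343 lay within PDHX, a part of the pyruvate dehydrogenase complex, mir-7142 within MARK2, a microtubule-affinity kinase, and mir-7135 within ABCC1, a drug efflux transporter. mir-1307 lay within USMG5, which codes for a small ATP synthase subunit.

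Host gene level and miRNA level in MSCs did not run in the same order, and the hosts named here are examples. Of the hosts, 18 had an entry in the mRNA table. The rank correlation of mean host level and mean miRNA level (Spearman rho) was -0.04 over these 18. Over the 16 with a single entry it was 0.16. REM1, a Ras-like GTPase gene that spans mir-7140, had the highest level of the 18 at 47.7 RPKM (SD 4.70, n = 3), while the arms of mir-7140 summed to 4.97 CPM. TNRC6B was at 1.65 RPKM (SD 0.264, n = 3) and mir-7134 at 1230 CPM. BUD23, an rRNA methyltransferase gene, was at 24.1 RPKM (SD 2.12, n = 3) and mir-7137 at 15.3 CPM. FGFR4, a growth factor receptor gene, was at 0.0796 RPKM (SD 0.0446, n = 3), and both arms of mir-7138 in it were at 0 in all 6 libraries. For 2 hosts, DGCR8 and DNPEP, the mRNA table held 2 entries each with hardly any reads, so their levels are uncertain. Whether the pigs of the mRNA and small-RNA libraries are numbered alike is uncertain, so only means were set side by side.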

How the data were processed

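For each of 3 pigs, small RNA was read in an MSC and an EV library. The deposited miRNA tables, made by the authors with CAP-miRSeq, hold expected counts, with reads that match several precursors divided between them, and CPM, the same counts scaled to the column total. Per the labels, cutadapt 0.9.5, Bowtie 0.12.7 and the build susScr3 were named. The authors' mRNA table holds raw counts and RPKM, used here for host genes and cell markers.

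The 50 members, the gene lists and the tests were chosen with earlier results of these data known. For each mature name the entry with the largest total was used. Counts were rounded and EVs compared with MSCs by edgeR 4.0.16 in R 4.3.3 (TMM, filterByExpr, quasi-likelihood, Benjamini-Hochberg over all 220 miRNAs tested), after the study's unpaired comparison. The scripts were tested on simulated data. Alternatives were DESeq2 1.42.0, edgeR's exact test, limma 3.58.1 on log2(CPM + 1) and log2(CPM + 10), other scaling, no filter, summed entries, a block for the pig, and fits with each library removed in turn. Named were members above 3 counts in any EV library, the 15 highest in MSCs, those with the largest changes (up to 5 in each direction), and those at 0 by name. Named besides, after their values were seen, were miR-1271, miR-4331, miR-7137-5p, miR-7137-3p and members counted in few MSC libraries.

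Pairing by pig comes from the labels. The deviations from the group means correlated between the 2 libraries of a pig at -0.23, -0.019 and -0.13. Expected EV counts are the CPM of the same pig's MSC library times the EV column total. Wilson 95% intervals and the limit of 3 counts cover counting error only.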

Additional observations from a re-analysis of the deposited data

How the results depend on the processing

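Calls depended on the test and on single libraries. Past the adjusted threshold, members higher and lower in EVs were 2 and 4 with DESeq2 (6.36% and 6.36% of all miRNAs). They were 0 and 4 with edgeR's exact test (0.909% and 5.45%) and 0 and 6 with limma on log2(CPM + 1) (0.455% and 9.55%). When each library was left out, they were 0 to 4 and 0 to 13 (0% to 8.23% and 0% to 39.5%). At the unadjusted threshold, higher members were 4 with upper quartile factors (12.3% of all), 1 with library totals only (6.36%), 5 with DESeq2 (12.3%) and 0 with limma at either pseudocount (4.09% and 5%), and lower members were 6 with DESeq2 (13.6%) and 6 with limma on log2(CPM + 10) (15.9%). With the replicate block these were 0 and 1 (1.36% and 6.36%). Leaving out each library other than EV replicate 3 gave 0 to 2 and 5 to 11 (1.63% to 8.47% and 8.79% to 19%). Without EV replicate 3 they were 4 and 13, as at the adjusted threshold. The block changed no other call. The members' median log2 fold change was -3.64 with RLE factors, -3.86 with upper quartile factors, -2.90 with library totals only, -5.73 with no filter, -1.19 with DESeq2, -2.70 and -0.96 with limma on log2(CPM + 1) and log2(CPM + 10), -5.45 with the replicate block, and -8.55 to -0.71 without single libraries. The log2 difference in share was -0.065 without miR-21 in the totals, 0.79 with the block (sign-flip p = 0.75 in an exact permutation test) and 0.03 to 1.59 without single libraries. Members above 3 counts in any EV library numbered 5 to 10 without single EV libraries.

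Of the 348 values of single members under 16 alternatives, 315 stayed short of the adjusted threshold and 33 passed it. A change of sign was seen in 17, from 6 members, and 2 of these passed the threshold, miR-1285 and miR-1296-5p without EV replicate 3. On the log2 scale, miR-1285 (3.59 as reported) was -1.31 with limma on log2(CPM + 1), -2.98 with the block and -11.8 to 4.39 without single libraries. miR-1296-5p (1.49) was -0.95, -2.02 and -10.2 to 2.24 in the same order. miR-2320-3p (1.85) was -2.37 and -0.45 with limma on log2(CPM + 1) and log2(CPM + 10), -1.53 with the block and -11.7 to 2.53 without single libraries. miR-7134-3p (1.02) was -2.05, -0.96, -0.20 and -0.032 to 1.54 in that order. miR-1307 (-0.63) was 0.078 with upper quartile factors and 1.09 with library totals only, and miR-2411 (3.46) was -8.65 to 4.22 without single libraries. Beyond the scaling, the depth of EV replicates 2 and 3 limits every EV value. The causes were not tested.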
